A study of Mus musculus with 10 samples.

Results

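The interleukin-1 (IL-1) family transcripts described here are 9 genes, Il1a, Il1b, Il1rn, Il1r1, Il1r2, Il1rap, Il18, Il18rap and Il36g, of 28185 in the deposited table, taken as a named gene family, matched by symbol to Ensembl identifiers, with no threshold on a measured value. They were followed in 10 RNA-seq libraries of Ly6G+ cells, the surface phenotype of mouse neutrophils, captured with anti-Ly6G microbeads on day 3 of an infarct made by tying off the left coronary artery in C57Bl/6J male mice aged 12 to 16 weeks. The groups were infarcted heart without treatment (MI, n = 3, libraries 13, 19 and 20), infarcted heart from mice given mesenchymal stromal cells (MI+MSC, n = 3, libraries 15, 17 and 18), blood without treatment (Blood, n = 2, libraries 21 and 22) and blood after MSC (Blood+MSC, n = 2, libraries 23 and 24). The MSC were syngeneic bone marrow cells placed under the skin, away from the heart, soon after ligation. All 4 groups therefore carry an infarct, and no library from an unoperated or sham-operated mouse was analysed here.

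Signalling by this family starts with ligands that are stored or newly made inside the cell. IL-1α, encoded by Il1a, is active as a precursor and is released from damaged cells. IL-1β (Il1b) and IL-18 (Il18) need cleavage, typically by caspase-1 in an inflammasome, while IL-36γ (Il36g) belongs to a branch best known from epithelia. IL-1α and IL-1β share the signalling receptor encoded by Il1r1, which pairs with the accessory chain encoded by Il1rap and works through MyD88, IRAK kinases and NF-κB. The antagonist encoded by Il1rn occupies that receptor without signalling, and the decoy receptor encoded by Il1r2, a well known neutrophil product, binds ligand without a signalling domain. Il18rap encodes the accessory chain of the IL-18 receptor. After infarction, IL-1 signalling is known as an early driver of leukocyte recruitment to the heart.

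The ligand genes Il1a and Il1b and the receptor gene Il18rap are shown by the 250 bases before their annotated start, because Il1a and Il18rap differed between heart and blood in opposite directions while Il1b did not pass the test, and because both ligand genes lie on chromosome 2. The sequences come from RefSeq on GRCm38.p6, which held 8 of the 9 members, and are written 5′ to 3′ on the strand of the gene. The window of Il1a is chr2:129309973-129310222 on the minus strand, that of Il1b chr2:129371140-129371389 on the minus strand, and that of Il18rap chr1:40515112-40515361 on the plus strand. Capitals mark matches to 5 short motifs searched on both strands. One was the NF-κB motif. AP-1 was searched as the letters TGANTCA, where N is any base. C/EBP, a family active in myeloid cells, was searched as TTNNGNAA. The myeloid factor PU.1 was searched as the core GAGGAA. The TATA box that places the start of transcription was searched as TATAAA.
Il1a: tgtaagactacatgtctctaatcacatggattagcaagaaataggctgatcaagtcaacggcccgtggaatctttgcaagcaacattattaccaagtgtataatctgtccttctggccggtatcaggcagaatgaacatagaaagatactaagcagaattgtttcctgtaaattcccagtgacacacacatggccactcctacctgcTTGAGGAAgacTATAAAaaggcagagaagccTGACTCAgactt
Il1b: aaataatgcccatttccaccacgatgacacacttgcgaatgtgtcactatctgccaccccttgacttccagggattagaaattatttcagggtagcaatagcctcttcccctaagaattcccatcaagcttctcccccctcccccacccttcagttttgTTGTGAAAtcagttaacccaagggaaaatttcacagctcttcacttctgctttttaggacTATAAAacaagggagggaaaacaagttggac
Il18rap: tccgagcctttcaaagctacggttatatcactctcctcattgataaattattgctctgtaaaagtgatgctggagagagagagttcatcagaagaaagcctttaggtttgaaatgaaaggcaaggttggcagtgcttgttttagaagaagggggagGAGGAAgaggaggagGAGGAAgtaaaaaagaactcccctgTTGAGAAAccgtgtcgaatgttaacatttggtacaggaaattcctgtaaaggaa
The promoters of Il1a and Il1b each held a TATA match, the first base of which lay 32 and 31 bases before the start, and each held a C/EBP match, while Il1a also held an AP-1 match that began 12 bases before the start. In Il1a the run of 8 capitals is a C/EBP match that contains a PU.1 match, and Il18rap held 2 PU.1 matches and 1 C/EBP match but no TATA match. Among all 32851 promoter windows of this length, 12.4% held the TATA motif, 6.75% the AP-1 motif, 36.8% the C/EBP motif, 23.3% the PU.1 motif and 7.25% the NF-κB motif, of which these 3 windows held no match. These matches describe letters only, and no binding was measured.

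Values are normalized counts, in which the reads of each gene were scaled by a library size factor from DESeq2. Libraries held between 148594 (MI 13) and 8602711 reads on genes (Blood+MSC 24), a 57.9-fold range, so that 1 read was worth 8.40 normalized counts for MI 13, 7.07 for Blood 21 and 0.168 for Blood+MSC 24. Summed over 12 neutrophil markers, including S100a8, S100a9 and Csf3r, the level was 2387 to 7585 in MI, 2561 to 12614 in MI+MSC, 42788 to 48732 in Blood and 14310 to 20590 in Blood+MSC, with at most 1 marker at 0 in a library. Cardiomyocyte markers summed to 8218 to 24564 across the MI libraries, 3211 to 12773 across MI+MSC and 22.6 to 63.6 across the blood libraries, so RNA of heart tissue was also present in the cardiac selections. Summed over 12 monocyte and macrophage markers, Lyz2 and Cd68 among them, the level was 5093 to 15320 in MI and 11121 to 19727 in MI+MSC. It was 14693 to 22553 in Blood and 11123 to 13003 in Blood+MSC. Such a sum does not show which cells held this RNA, and its part in the member values was not tested. Platelet markers summed to 26538 in Blood 21, against 1115 in Blood 22 and 594 to 706 in Blood+MSC. The part of this in the comparisons with Blood was not tested. The share of reads on olfactory and vomeronasal genes, taken as a gauge of background reads, was higher in every cardiac library than in every blood library. It was highest in MI 13. The part of such reads in the higher cardiac values of low genes was not tested. In these bulk libraries, fewer cells of a type and less RNA per cell cannot be told apart. The labels do not say which libraries came from separate mice or shared one, and p-values measure the spread between these libraries alone.

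The test was limma's moderated fit on log2(normalized count + 2). The 11549 genes that averaged 10 or more normalized counts entered the test, all 9 members among them. A gene was called at an adjusted p (Benjamini-Hochberg over all tested genes) under 0.05 when its log2 fold change was also 0.5 or more in size. The added 2 shrinks the fold change of low genes. Scaled by exon length, Il1b was the most abundant member in each group, with 929 ± 292 normalized counts per kb in MI (SD, n = 3), 2154 ± 1207 in MI+MSC (SD, n = 3), 2186 ± 611 in Blood (SD, n = 2) and 2098 ± 1334 in Blood+MSC (SD, n = 2). Per kb, Il1r2 came after Il1b in each group but untreated Blood. In MI it ran Il1r2 at 133 ± 69.9, Il1rn at 111 ± 58.8 and Il36g at 81.7 ± 44.5, neighbours that lay within 1 SD of each other. In Blood, Il36g came second at 528 ± 108, then Il1r2 at 382 ± 21.8, Il18rap at 141 ± 16.03 and Il1rn at 115 ± 45.6, of which only Il18rap and Il1rn lay within 1 SD of each other. At the low end stood Il1rap (8.28 ± 3.37 per kb), Il18 (9.43 ± 3.62) and Il1r1 (9.96 ± 2.93) in MI, and Il1a (0.373 ± 0.527) in Blood.

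**Figure D1:**
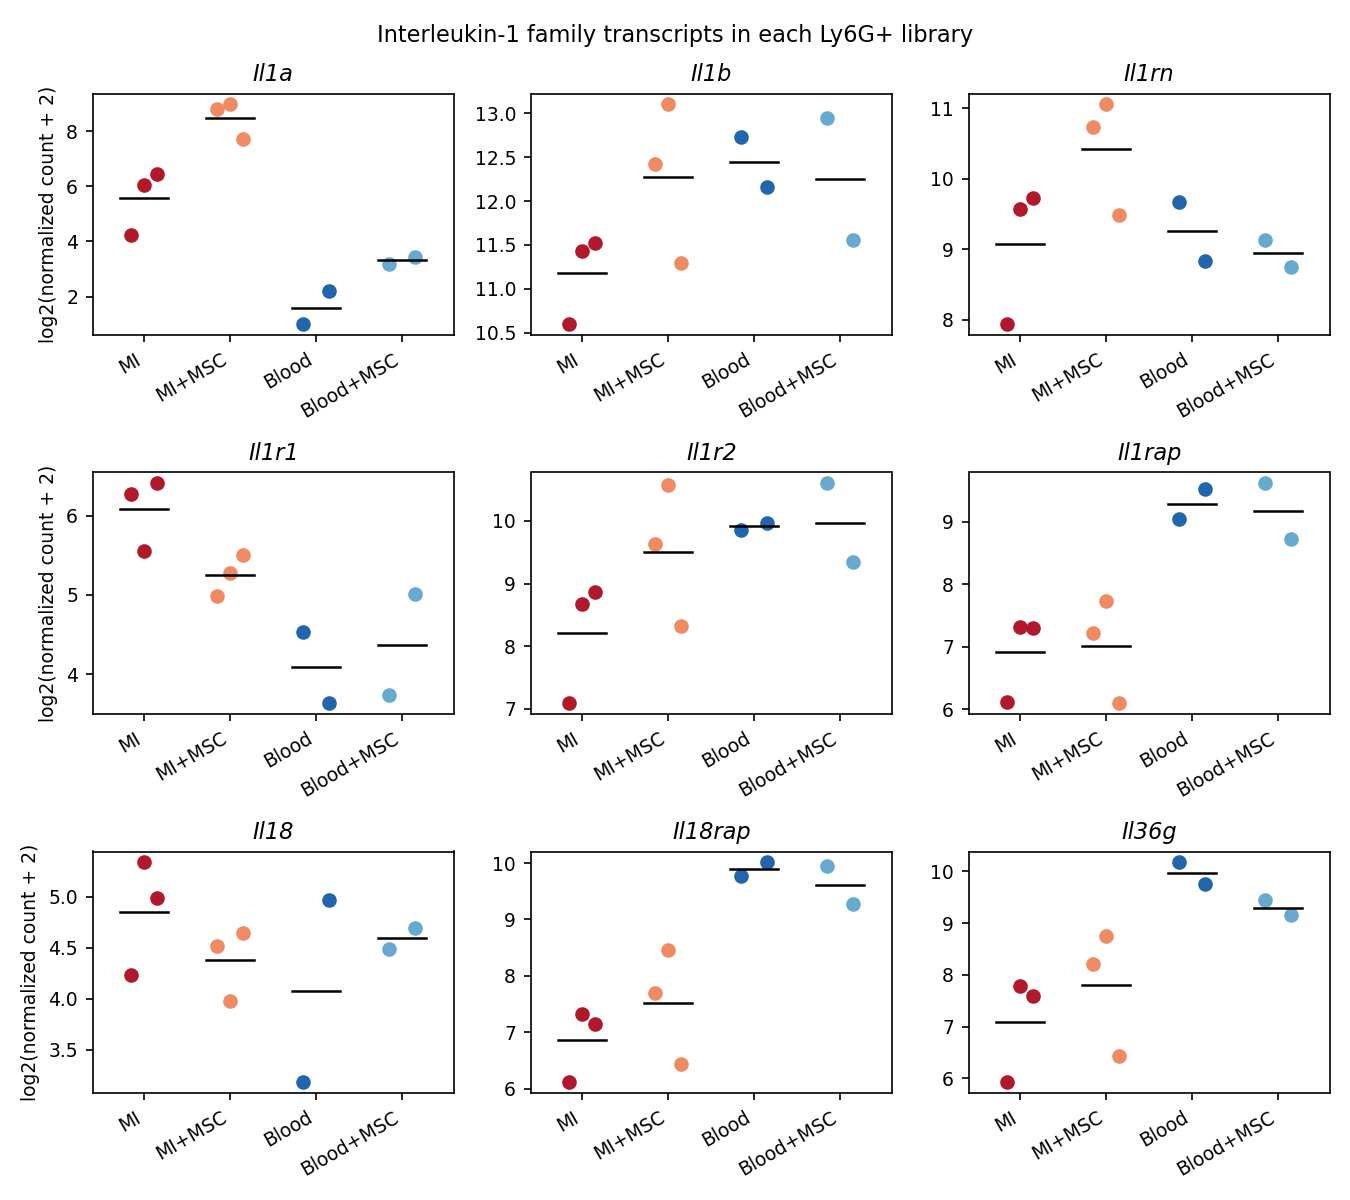
Each panel plots 1 gene, with log2(normalized count + 2) on the vertical axis and the 4 groups on the horizontal axis. Points are libraries in the order 13, 19, 20, 15, 17, 18, 21, 22, 23, 24 and lines are group means. Il1a is the gene whose 6 cardiac libraries all sit above the 4 blood libraries, while Il1rap, Il18rap and Il36g sit below them.

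Il1a was the member that differed most between heart and blood. It stood at 16.8, 64.4 and 84.4 normalized counts in MI 13, 19 and 20, from 2, 67 and 164 reads. In MI+MSC 15, 17 and 18 it reached 445, 498 and 206, from 659, 217 and 304 reads. The blood libraries held 0 and 2.60 without MSC, from 0 and 4 reads, and 7.09 and 8.92 with MSC, from 27 and 53 reads. Every cardiac library lay above every blood library (19.1% of tested genes did so), and the treated hearts lay above the untreated ones without overlap (7.05% of tested genes). MI exceeded Blood by a log2 fold change of 3.97 ± 0.64 (SE, limma, adjusted p = 0.0013), and MI+MSC exceeded Blood+MSC by 5.17 ± 0.64 (adjusted p = 0.00074). Because Blood held so few reads, the fitted difference between MI and Blood moved from 4.61 with a pseudocount of 1 to 3.06 with a pseudocount of 5, and it was called in both. The 2 reads of MI 13 are under the 3 reads taken as the smallest detectable amount, and without that library the difference was 4.64 (adjusted p = 0.00047).

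Between the MI+MSC and MI hearts, the mean of Il1a was 383 ± 156 against 55.2 ± 34.7 normalized counts (SD, n = 3 each). The log2 fold change of 2.92 ± 0.57 (SE, 95% interval 1.66 to 4.18) had an unadjusted p = 0.00032 and did not pass the correction (limma, adjusted p = 0.34). No gene of the 11549 was called by limma in this comparison (0.0%), with 925 genes at an unadjusted p under 0.05. The call turned on the method. On recovered reads, Il1a was called by DESeq2 over all groups (adjusted p = 0.00025), where 0.684% of genes were called and 0.182% called higher, by DESeq2 on these groups alone (adjusted p = 2.8e-05) and by limma-voom with quality weights (adjusted p = 0.0054). edgeR's quasi-likelihood test missed the threshold (adjusted p = 0.054, 0 genes called), while its robust setting passed it (adjusted p = 0.042). The direction held in all 23 alternatives. Without MI 13 the log2 fold change fell to 2.25 (limma, adjusted p = 0.70). Marker sums of other cells also differed between these groups. Mural markers summed to 987 to 1244 normalized counts in MI against 281 to 693 in MI+MSC, and platelet markers to 454 to 631 against 822 to 1753. Their part in the Il1a values, and that of the lower endothelial sums given with Il1r1, was not tested. In blood, the log2 fold change of Il1a with MSC was 1.72 ± 0.70 and again did not pass (limma, adjusted p = 0.67).

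Il1b, the abundant secreted ligand, passed the limma test in no comparison. Its normalized counts were 1546, 2749 and 2951 for MI and 5497, 8793 and 2515 for MI+MSC. Blood held 6811 and 4563, and Blood+MSC 7912 and 3003. The 3 MI libraries lay below both Blood libraries, as they did for 23.6% of tested genes, whereas MI+MSC overlapped with Blood+MSC and, through MI+MSC 18 alone, with MI. The log2 fold changes were -1.26 ± 0.70 for MI against Blood (limma, adjusted p = 0.18), 0.02 ± 0.70 for MI+MSC against Blood+MSC (adjusted p = 0.99) and 1.09 ± 0.63 for MI+MSC against MI (adjusted p = 0.65). DESeq2 on the MI and Blood libraries alone called the first (adjusted p = 0.033). The 95% interval for MI+MSC against MI ran from -0.28 to 2.46. MI+MSC 18, the lowest MI+MSC library for Il1b, also had the lowest neutrophil marker sum of its group, 2561 against 7368 and 12614, and the part of that in the value was not tested. An antisense gene, Il1bos, overlaps Il1b, but it held 569 reads over all libraries and the counting was by strand.

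The antagonist gene Il1rn ran in the same order as Il1b within the treated hearts. It stood at 244, 761 and 845 normalized counts in MI and 1703, 2121 and 718 in MI+MSC, against 813 and 455 for Blood and, after MSC, 561 and 431. All MI+MSC libraries lay above the Blood+MSC libraries, a position shared by 33.8% of all tested genes. The log2 fold change between them of 1.48 ± 0.60 missed the threshold (limma, adjusted p = 0.12) but passed in 5 of 23 alternatives, both DESeq2 fits among them (adjusted p = 0.0095 over all groups, where 17.8% of genes were called higher). For MI+MSC against MI it was 1.35 ± 0.53 (95% interval 0.18 to 2.51, adjusted p = 0.61), and without MI 13 it fell to 0.78. MI and Blood differed by -0.17 ± 0.60 (adjusted p = 0.84), with an interval from -1.48 to 1.13.

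The balance of antagonist to agonist can be read within a library, where scaling between libraries cancels. Il1rn per Il1b normalized count was 0.158, 0.277 and 0.286 for MI and 0.310, 0.241 and 0.285 for MI+MSC. In Blood it was 0.119 and 0.0998, and in Blood+MSC 0.0709 and 0.143. The 6 cardiac libraries all lay above the 4 blood libraries, with MI 13, which rests on 29 Il1rn reads, nearest to them. Against the other agonist gene, Il1a, the order was reversed. Il1rn per Il1a was 14.5, 11.8 and 10.01 for MI and 3.82, 4.26 and 3.48 for MI+MSC. It was 175 in Blood 22 and 79.1 and 48.3 in Blood+MSC, and Blood 21, with 0 Il1a reads, gave no ratio. The values of MI 13 and Blood 22 rest on 2 and 4 Il1a reads. Il1a per Il1b was 0.0109, 0.0234 and 0.0286 for MI and 0.0810, 0.0567 and 0.0819 for MI+MSC. In the blood libraries it stayed at or under 0.00297. The relative excess of Il1a in treated hearts was thus present in each library, including MI+MSC 18, in which Il1b was low. These ratios were chosen after the values were seen and were given no test.

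**Figure D2:**
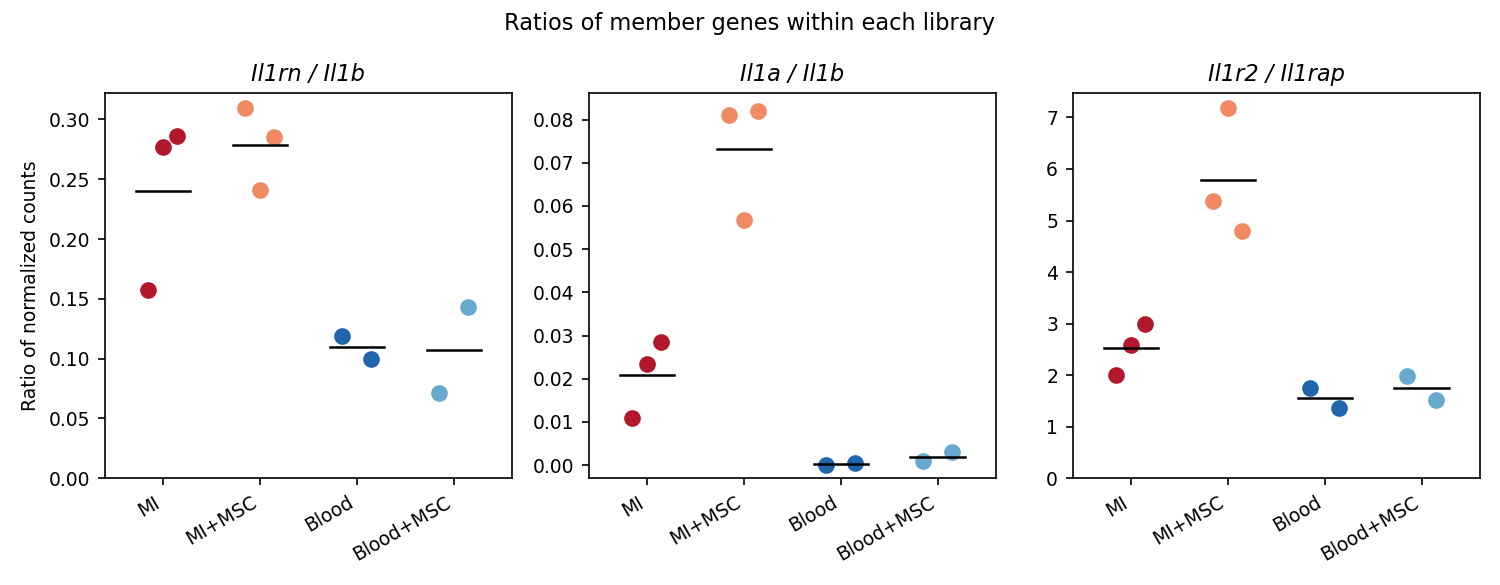
Each panel plots the ratio of the normalized counts of 2 member genes on the vertical axis against the 4 groups. Points are libraries and lines are group means. Il1rn per Il1b separates the cardiac from the blood libraries, and Il1a per Il1b runs from 0.0567 to 0.0819 in MI+MSC against 0.0109 to 0.0286 in MI.

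The other ligands moved in different ways. Il36g was higher in the blood libraries than in the cardiac ones, with 1152 and 860 normalized counts in Blood and 692 and 567 in Blood+MSC. In the heart it stood at 58.8, 217 and 191 for MI and 293, 432 and 84.1 for MI+MSC. No cardiac library reached the lowest blood library, as for 14.0% of tested genes. For MI+MSC against Blood+MSC alone that share was 29.7%. MI was below Blood by a log2 fold change of -2.86 ± 0.66 (limma, adjusted p = 0.0080), whereas the difference of -1.50 ± 0.66 between MI+MSC and Blood+MSC did not pass (adjusted p = 0.15), although it did with DESeq2 on these groups alone (adjusted p = 0.040). Both Blood+MSC libraries were below both Blood libraries for Il36g, as were 15.4% of tested genes, and the log2 fold change of -0.67 ± 0.73 did not pass (adjusted p = 0.87).

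Il18, the other caspase-1 substrate, was low throughout, at 16.8, 38.4 and 29.9 normalized counts in MI, 20.95, 13.8 and 23.05 in the treated hearts, 7.07 and 29.2 in Blood, and 20.5 and 23.9 in treated blood. The groups overlapped in all comparisons. MI 13 and Blood 21 rest on 2 reads and 1 read of Il18. No difference passed with all libraries in the fit, and the largest log2 fold change among the 4 group comparisons was 0.78 ± 0.55 for MI against Blood (limma, adjusted p = 0.29), which turned to -0.11 without Blood 21 and passed at 1.67 without Blood 22 (adjusted p = 0.031).

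Among the receptors, the signalling chain Il1r1 was higher and its accessory chain Il1rap lower in MI than in Blood. Il1r1 stood at 75.6, 45.2 and 82.9 normalized counts in MI, at 29.7, 36.7 and 43.4 in MI+MSC, at 21.2 and 10.4 in Blood and at 11.3 and 30.1 in Blood+MSC. Every MI library lay above every MI+MSC library and every Blood library, the latter as for 31.6% of tested genes. MI exceeded Blood by 1.998 ± 0.47 on the log2 scale (limma, adjusted p = 0.0084), although Blood 21 held 3 reads, and limma-voom with quality weights did not call it (adjusted p = 0.071). MI+MSC overlapped with Blood+MSC for Il1r1, with a log2 fold change of 0.89 ± 0.47 that did not pass (limma, adjusted p = 0.22) and was called in 0 of 23 alternatives. MI+MSC was lower than MI by a log2 fold change of -0.83 ± 0.42 (adjusted p = 0.64), and 9.6% of tested genes were lower without overlap in that comparison. Il1r1 is widely expressed by endothelial cells and fibroblasts. Summed over 10 endothelial markers, the level was 2363 to 2534 normalized counts in MI, 617 to 1114 in MI+MSC, 134 to 1526 in Blood and 76.1 to 83.5 in Blood+MSC, with none of the markers at 0 in the heart and 5 at 0 in Blood 21. Summed over 9 fibroblast markers it was 1076 to 1528 in MI, 980 to 1723 in MI+MSC, 527 to 1039 in Blood and 501 to 842 in Blood+MSC. The part of these cells in the Il1r1 values was not tested, nor was that of the background reads, whose share was higher in the cardiac libraries. In MI 13, Il1r1 rests on 9 reads, where family genes under the filter held from 0 (Il1f10) to 4 reads (Il33).

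Il1rap stood at 67.2, 158 and 155 normalized counts in MI and 147, 211 and 66.4 in MI+MSC, against 530 and 737 for Blood and, after MSC, 783 and 422. The highest cardiac library was below the lowest blood library, as for 14.0% of tested genes. The log2 fold change was -2.38 ± 0.52 for MI against Blood (limma, adjusted p = 0.0059) and -2.15 ± 0.52 for MI+MSC against Blood+MSC (adjusted p = 0.019). The second call was lost without MI+MSC 18 (adjusted p = 0.068), Blood+MSC 23 (adjusted p = 0.24) or Blood+MSC 24 (adjusted p = 0.052), with the direction kept. MSC treatment left the levels overlapping, with 95% intervals of the log2 fold change from -0.90 to 1.12 in the heart and from -1.36 to 1.12 in blood.

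Il18rap, the accessory chain of the IL-18 receptor, showed the same separation. It stood at 67.2, 159 and 139 normalized counts in MI and 204, 351 and 84.1 in MI+MSC, against 876 and 1029 for Blood and, after MSC, 982 and 616. No cardiac library reached the blood range, as for 14.0% of tested genes. The log2 fold change was -3.03 ± 0.54 for MI against Blood (limma, adjusted p = 0.0023) and -2.08 ± 0.54 for MI+MSC against Blood+MSC (adjusted p = 0.027), and the second call was lost without MI+MSC 15, MI+MSC 18, Blood+MSC 23 or Blood+MSC 24 (adjusted p = 0.063, 0.084, 0.26 and 0.082). The neutrophil marker sum was also lower in each cardiac library than in each blood library, and its part in the lower Il1rap, Il18rap and Il36g was not tested.

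The decoy receptor gene Il1r2 followed Il1b more closely than it followed the other receptors. Its normalized counts were 134, 407 and 465 for the MI hearts and 792, 1515 and 319 for the MI+MSC hearts. Blood held 926 and 1003, and Blood+MSC 1545 and 644. MI lay below Blood without overlap, as for 23.6% of tested genes, and MI+MSC overlapped with both. The log2 fold change of -1.70 ± 0.68 for MI against Blood missed the threshold (limma, adjusted p = 0.070) and passed with DESeq2 over all groups (adjusted p = 0.041, 15.7% of genes called lower). For MI+MSC against MI it was 1.30 ± 0.61 (adjusted p = 0.62, 95% interval -0.03 to 2.63). Relative to Il1rap, Il1r2 was 2 to 3 times as high in MI, 4.80 to 7.17 times in MI+MSC and 1.36 to 1.97 times in the blood libraries, in normalized counts. These ranges did not overlap, but the lowest MI value rests on 16 and 8 reads, and the ratio was picked after the values were seen. Relative to Il1r1 the blood libraries reached highest instead. Il1r2 was 1.78 to 9 times as high as Il1r1 in MI, 7.34 to 41.25 times in MI+MSC and 21.4 to 137 times in the blood libraries. There the MI+MSC range overlapped with both others. A same-strand gene model inside Il1r2, Gm37347, held 13497 reads over all libraries, so the split of reads between the 2 models is uncertain.

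**Figure D3:**
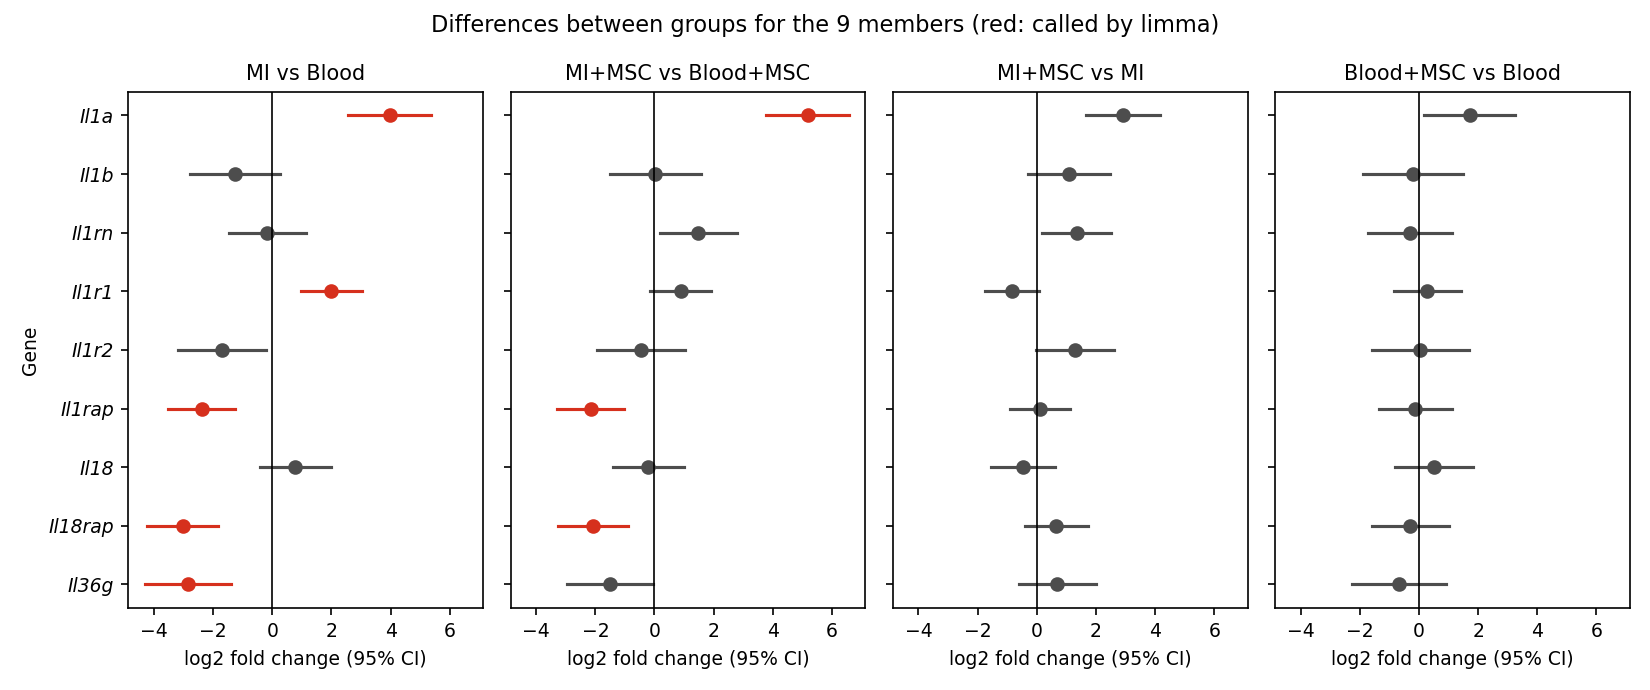
Each panel shows 1 comparison, with the log2 fold change and its 95% confidence interval from limma on the horizontal axis and the 9 genes on the vertical axis. Red marks called genes. Il1a lies to the right of 0 in all 4 panels, and calls stand in the 2 comparisons of heart with blood alone.

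Read over the 9 members, MI against Blood gave 5 calls where 34.7% of all tested genes were called. They were 2 higher, Il1a and Il1r1, where 21.2% of all genes were called higher, and 3 lower, Il1rap, Il18rap and Il36g, where 13.5% were called lower. With library size in place of size factors, the calls over all genes shifted from 61.2% to 82.3% higher and the median log2 fold change of all genes from 0.15 to 0.63, and the number of members called stayed at 5. The median log2 fold change of the members was -1.26. In MI+MSC against Blood+MSC, 3 members were called against 14.1% of genes, 1 higher, Il1a, against a background of 8.23%, and 2 lower, Il1rap and Il18rap, against 5.85%, and the median over the members was -0.21 against 0.09 over all genes. Il1a, Il1rap and Il18rap were thus called in both comparisons of heart with blood. These share no library, but their spread was estimated jointly from all 10 libraries, so the 2 calls are not independent. Il1rap, Il18rap and Il36g lay below in all 6 cardiac libraries against the 4 blood libraries, as 14.0% of tested genes did, and Il1a lay above, as 19.1% did. MSC treatment gave no call among the members in heart (0 of 9, 0.0% of all tested genes) or blood (0 of 9, 0.0%, with 848 genes at an unadjusted p under 0.05), and edgeR gave none either. DESeq2 over all groups called 1 member in heart and 0 in blood, where it called 1.55% of all genes. The interaction of MSC treatment and tissue was not called for any member (0.0% of genes). Its largest log2 value was 1.65 ± 0.84 for Il1rn (adjusted p = 0.63).

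Over all 10 libraries the members fell into like pairs by the root mean square difference of their centred log2 values, a description of libraries that share tissue and depth. Il1rap and Il18rap were the closest pair at 0.29, Il18rap and Il36g followed at 0.34, and Il1b and Il1r2 stood at 0.38. Il1a was far from each other member, at 2.17 from Il1rn and more from the rest. Among all tested genes, those most like Il1b were Dusp1 (0.17), Pgghg (0.22), Socs3 (0.22), Tnfaip2 (0.25) and Nabp1 (0.27). Those most like Il1a were Hilpda (0.60), Cxcl1 (0.63), Dusp2 (0.65), Gm9320 (0.74) and 4930430E12Rik (0.84). For Il1rn they were Il10rb (0.15), Tgoln1 (0.20), Atf4 (0.22), Slc20a1 (0.22) and Cxcr4 (0.24), and for Il1r2 they were 4833407H14Rik (0.29), Dedd2 (0.30), Resf1 (0.31), Stk17b (0.32) and Cytip (0.33).

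The rest of the family was scarce. Of 6 other ligand and binding protein genes (Il33, Il36a, Il36b, Il36rn, Il1f10 and Il18bp), only Il18bp, a soluble trap for IL-18, passed the filter. Of 6 other receptor genes, Il1rl1, Il1rl2 and Il18r1 passed. Il18r1, the ligand-binding chain that pairs with Il18rap, fell short of its Blood level in MI (log2 fold change -1.78 ± 0.50, limma, adjusted p = 0.019). Its means were 17.4 normalized counts in MI and 62.0 in Blood. Il18bp was lower in MI too (-1.34 ± 0.43, limma, adjusted p = 0.033), at 20.9 against 58.0. Its Blood libraries 21 and 22 held 35.3 and 80.6. Both genes rest on 3 reads in MI 13, and in Blood 21 on 8 for Il18r1 and 5 for Il18bp. Neither passed with limma between MI+MSC and Blood+MSC, where Il18r1, at -1.37 ± 0.50 (limma, adjusted p = 0.086), was called by edgeR (adjusted p = 0.0094) and DESeq2 (adjusted p = 0.039). Il1rl1 and Il1rl2 passed in no comparison with limma, and edgeR called Il1rl2 in MI against Blood (adjusted p = 0.042).

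Of 16 tested genes that process or release these cytokines, 7 were lower and 0 higher in MI than in Blood, where 13.5% of all tested genes were lower and 21.2% higher. The median log2 fold change of the 16 was -0.57 against 0.15 over all genes. The neutrophil marker sum was lower in MI too, 2387 to 7585 against 42788 to 48732 in Blood, and its part was not tested. The 7 lower genes were Mmp9 (-2.96), Gsdme (-2.59), Casp1 (-2.55), Txnip (-2.22), Capn1 (-1.94), Casp4 (-1.60) and Gsdmd (-1.33). In MI 13, Gsdme rests on 2 reads and Casp1 on 1 read. Casp1 encodes the protease that matures IL-1β and IL-18, and Gsdmd the pore through which they leave the cell. In MI+MSC against Blood+MSC, 4 were lower and 1 higher, where 5.85% and 8.23% of all tested genes were. The lower genes were Prtn3 (-2.74), Capn1 (-1.91), Gsdme (-1.74) and Gsdmd (-1.15). Prtn3 rests on 5, 1 and 3 reads in MI+MSC 15, 17 and 18, so the size of its fold is uncertain. The higher gene was the inflammasome sensor Nlrp3 (1.87, limma, adjusted p = 0.032), with means of 2176 and 565 normalized counts. MI+MSC against MI gave a log2 fold change of 1.598 for Nlrp3 that did not pass (limma, adjusted p = 0.52) and that DESeq2 over all groups called (adjusted p = 0.017).

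Of 25 receptor signalling genes tested, 6 were lower and 2 higher in MI than in Blood, and 8 of 25 called is near the background of 34.7% of all tested genes. Their median log2 fold change was -0.43 against 0.15 over all genes. The lower ones included the kinase Irak4 (-2.06), the kinases Map3k3 (-2.02) and Mapk14 (-1.77), and the adaptor Myd88 (-1.30), with Peli1 (-0.95) and Ikbkg (-0.92). Ecsit (1.67) and Irak1 (1.16) were higher, though Ecsit rests on 1 read in Blood 21 and 3 reads in MI 13. Irak4 also rests on 3 reads in MI 13. In MI+MSC against Blood+MSC, 2 of the 25 were lower, Irak4 (-1.64) and Mapk14 (-1.28), where 5.85% of all tested genes were. Sqstm1 (1.56) alone was higher, where 8.23% were. Calls in this list were thus near the background of 14.1% in either direction.

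Of 15 tested genes induced by IL-1, or that feed back on it, 7 were higher and 2 lower in MI than in Blood, where 21.2% of all tested genes were higher and 13.5% lower. Their median log2 fold change was 1.68 against 0.15 over all genes. The higher genes included the NF-κB brake Tnfaip3 (3.22), the adhesion gene Icam1 (1.90), the protease gene Plau (2.20, from 2 reads in Blood 21), the chemokine gene Ccl2 (2.03) and the inhibitor Nfkbie (1.77). Cxcl1, a chemokine for neutrophils, was called too, with 0 and 2 reads in the Blood libraries, so no fold is given, at 16.8, 35.6 and 54.6 normalized counts in MI. The adhesion gene Vcam1 was called with 0 and 10 reads in Blood, at 58.8, 48.1 and 83.4 normalized counts in MI. The 2 lower genes were Lcn2 (-3.47), a granule protein gene of neutrophils, and Saa3 (-1.79). In MI+MSC against Blood+MSC 8 were higher and 2 lower, where 8.23% and 5.85% of all tested genes were, at a median of 2.20 against 0.09. There the largest were Tnfaip3 (4.15), Cxcl1 (3.79), Icam1 (3.28), Plau (2.96), Ccl2 (2.90) and Cxcl2 (2.65), and Saa3 (-3.31) and Lcn2 (-2.80) were again the lower ones. Vcam1 and Icam1 are also endothelial genes and Ccl2 a fibroblast and macrophage gene, and the part of those cells was not tested.

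Between MI+MSC and MI, 11 of these 15 genes had a positive log2 fold change, at a median of 1.14 against -0.01 over all genes, and limma called none. Whether the differing mural, platelet and endothelial marker sums of these hearts play a part was not tested. The highest values were Cxcl1 (2.20, limma, adjusted p = 0.34), Tnfaip3 (1.83, adjusted p = 0.53) and Cxcl2 (1.82, adjusted p = 0.58). For each of them MI 13 was the lowest MI library, at 16.8, 319 and 698 normalized counts. The Cxcl1 value there rests on 2 reads, under the floor of 3. MI 19 held 35.6, 798 and 1437, and MI 20 held 54.6, 1257 and 2001. MI+MSC 18, the lowest treated library, held 111, 1177 and 2181, so Tnfaip3 overlapped with MI. DESeq2 over all groups called 4 of these 15 genes, and edgeR called 0. The DESeq2 calls were Cxcl1 (adjusted p = 0.0091), Nfkbia (adjusted p = 0.031), Nfkbiz (adjusted p = 0.041) and Icam1 (adjusted p = 0.041). In blood, the median of the list was 0.34 against 0.11 over all genes, with 0 calls by limma, edgeR and DESeq2.

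**Figure D4:**
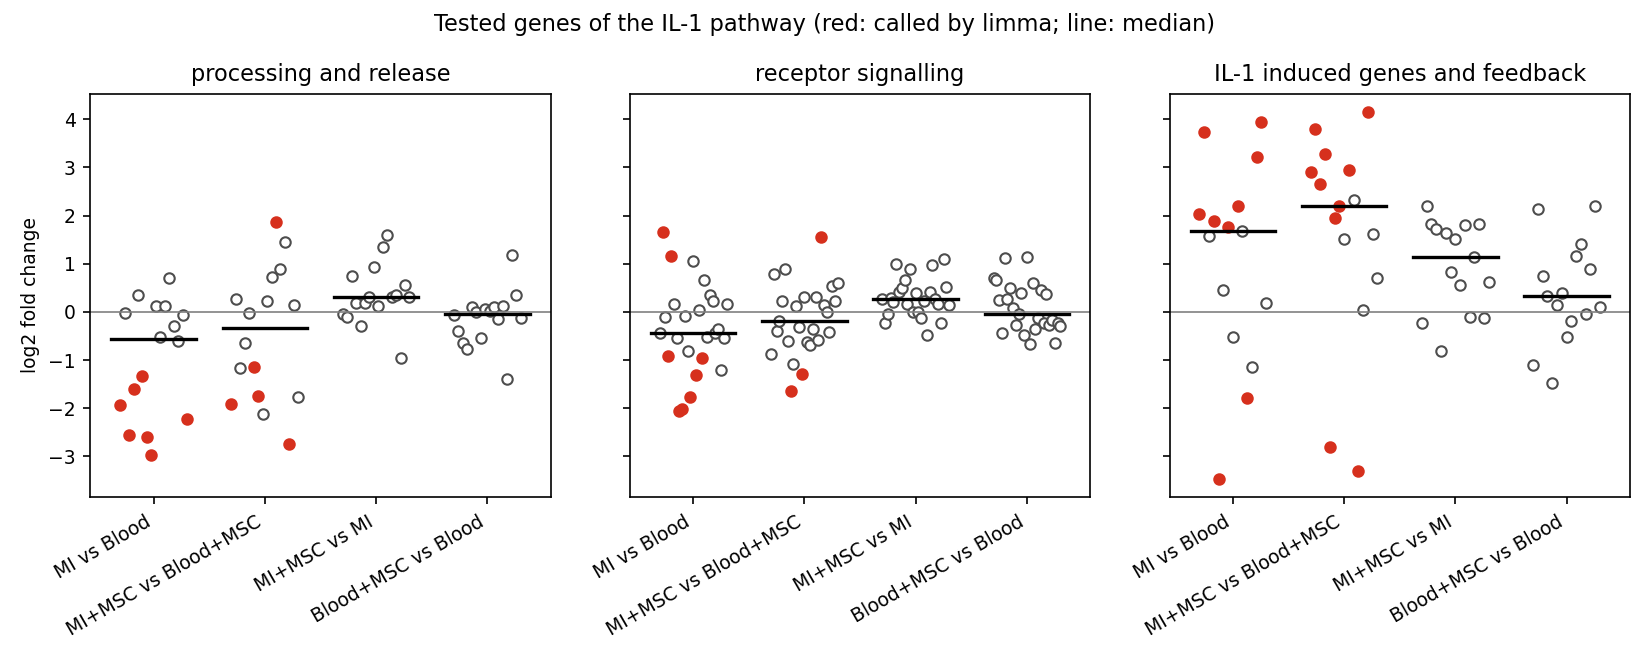
Each panel is a list of pathway genes, with the log2 fold change of each tested gene on the vertical axis and the 4 comparisons on the horizontal axis. Filled red points are called by limma, open points are not, and lines are medians. The medians of the IL-1 induced genes lie highest in the comparisons of heart with blood, at 1.68 and 2.20, where the medians of the processing genes lie below 0, at -0.57 and -0.34.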

How the data were processed

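Libraries were depleted of ribosomal RNA. From read pairs the authors removed adapters (Trimmomatic) and duplicates (Picard), then aligned with STAR on GRCm39 and assigned reads to genes by strand with featureCounts, without mitochondrial reads. The deposited signal values are these gene counts after division by a size factor (DESeq2), and the table named as raw counts equals the normalized one in all 281850 values. Values were whole multiples of 1 read in 100.0% of cases, within 0.01 of a whole number, which gave the recovered reads. Floors of 3 reads cover counting error only. Groups came from the labels. The members, gene lists and tests were chosen with earlier results of these data known. The genes named are the 9 members, list genes past the threshold (at most 8 per list and comparison, plus a few of the highest or method-dependent values of the MSC comparison chosen after they were seen) and the 5 genes nearest to Il1a, Il1b, Il1rn and Il1r2. limma (3.58.1) was fitted with an intensity trend to all 10 libraries with 1 mean per group. edgeR (4.0.16), DESeq2 (1.42.0), limma-voom, other pseudocounts, filters, scalings and each library left out were alternatives, and a fit without the 2 shallowest libraries and edgeR's robust dispersion were added after seeing the data. Tools were tested on simulated data. Exon lengths came from GENCODE M39, which held 27906 of 28185 identifiers. R 4.3.3, Python 3.11.15, pandas 2.3.3 and matplotlib 3.10.9 were used.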

Additional observations from a re-analysis of the deposited data

How the results depend on the processing

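Direction and call of the members were recomputed under other pseudocounts, filters, scalings and tests, and with each library left out. The number of genes called in MI+MSC against MI, 0 with limma, was 79 with DESeq2 over all groups, 148 with DESeq2 on these groups, 261 with limma-voom and 20 with edgeR's robust setting, and each of these called 1 member, Il1a. In Blood+MSC against Blood, 0 became 179 and 39 with the DESeq2 fits, 3 without the 2 shallowest libraries and 0 to 1506 with 1 library left out, the highest without Blood 22, and no member was called. In MI against Blood, 4008 became 2590 with limma-voom, 1700 with limma on these groups and 2391 with DESeq2 on these groups. In MI+MSC against Blood+MSC, 1627 became 3693 with edgeR, 3724 with its robust setting, 3353 and 4532 with the DESeq2 fits, 4884 with limma-voom, 4010 with limma on these groups, 4764 without the 2 shallowest libraries and 266 to 2704 with 1 library left out. There the 3 members called became 5 with DESeq2 on these groups and without the 2 shallowest libraries, and 1 to 4 with 1 library left out. The interaction gave 20 genes with DESeq2 and 0 to 1095 with 1 library left out, the highest without Blood 22.

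Reversals touched only differences that were not called, and the cause was not tested. For MI+MSC against MI, the log2 fold change of Il1rap became -0.020 with library size scaling, -0.17 with limma-voom and -0.29 without the 2 shallowest libraries, and ran from -0.29 to 0.57 with 1 library left out. For Blood+MSC against Blood, library size scaling gave 0.11 for Il1b, 0.18 for Il1rap and 0.012 for Il18rap. limma-voom gave 0.026 for Il1rap and -0.17 for Il18, and Il18 was -0.076 with edgeR and its robust setting and -0.072 with DESeq2. Without the 2 shallowest libraries the values were 0.095 for Il1b, 0.11 for Il1rn, -0.0077 for Il1r2 and -0.37 for Il18. With 1 library left out they ran from -0.89 to 0.50 for Il1b, -0.72 to 0.11 for Il1rn, -0.35 to 0.92 for Il1r1, -0.58 to 0.68 for Il1r2, -0.56 to 0.32 for Il1rap, -0.37 to 1.41 for Il18 and -0.62 to 0.048 for Il18rap. For MI against Blood, Il1rn became 0.35 with library size scaling and 0.81 without the 2 shallowest libraries, and ran from -0.59 to 0.40 with 1 left out, and Il18 from -0.11 to 1.67. For MI+MSC against Blood+MSC, Il1b became -0.11 with TMM scaling, -0.063 with both edgeR fits and -0.059 with DESeq2 on these groups, and ran from -0.68 to 0.72, and Il1r2 from -1.09 to 0.17. The interaction of Il1rap became -0.198 with library size scaling and -0.197 with limma-voom, and ran from -0.21 to 0.69.

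No paired analysis was possible because library numbers are not shared between groups and the labels tie no heart library to a blood library. Depth limits Il1a, Il1r1 and Il18, which rest on 9 reads or fewer in MI 13 and 3 or fewer in Blood 21. Il1rap, Il18rap and Il36g also rest on 8, 8 and 7 reads in MI 13. Without that library their log2 fold changes for MI against Blood were -1.99, -2.66 and -2.28 (limma, adjusted p = 0.016, 0.0071 and 0.021).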
